A study of Mus musculus with 20 samples.

Results

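The 10 transcription factor genes described here are associated with T cell exhaustion and were followed across donor T cells recovered after allogeneic bone marrow transplantation (BMT). They are Tox, Tox2, Nfat5, Nfatc1, Nfatc2, Nfatc3, Nr4a2, Nr4a3, Batf and Irf4, they were chosen by gene symbol, and all 10 were found among the 17101 genes of the expression table. RNA was sequenced from splenic donor T cells sorted on day +10 in a haploidentical model, in which B6 donors of 6 to 12 weeks of age were transplanted into lethally irradiated female F1 recipients of 8 to 12 weeks. Donors were wild-type (WT) littermates or Dnmt3a-KO mice, in which both Dnmt3a alleles carry loxP sites and Cre is driven by the Cd4 promoter, so that deletion occurs in T cells that have expressed CD4 during thymic development. There were 5 groups of 4 libraries. KO animals 1 to 4 gave CD4+ cells, CD8+ cells and cells that carried both markers (double-positive, DP), and WT animals 2, 3, 5 and 6 gave CD4+ and CD8+ cells. All groups had therefore met host antigen for the same time in irradiated recipients. No WT library of DP cells was used here. The question was whether factors that set hyporesponsiveness were expressed at other levels when DNMT3a, an enzyme that writes new DNA methylation, was absent. For Nfat5 and Tox the authors had already reported lower expression in KO T cells from this RNA sequencing.

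These factors form a connected circuit. Calcium entry after T cell receptor ligation activates the phosphatase calcineurin, which releases the proteins made by Nfatc1, Nfatc2 and Nfatc3 into the nucleus. NFAT acting together with AP-1 drives cytokine genes, whereas NFAT acting without AP-1 drives Nr4a and Tox genes and genes of anergy, and TOX in turn supports the chromatin program of exhausted CD8+ T cells. Nfat5 encodes a distant family member that responds to osmotic stress and does not need calcineurin. BATF pairs with JUN proteins and binds composite sites with IRF4, and that pair shapes both effector differentiation and exhaustion.

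Between 37547651 and 46966318 reads fell on genes in each library. Genes with reads numbered 14421 to 14677 in WT and 13203 to 14198 in KO libraries, except for 11783 in the DP library of KO animal 3, which stood apart. Dnmt3a itself was at 650.4 to 2007 normalized counts in the 12 KO libraries and at 3542 to 5171 in the 8 WT libraries, without overlap. Cd4 was at 44804 or more in CD4+ libraries, at 8758 to 15351 in DP libraries and at 458 or less in CD8+ libraries. Cd8a was at 41594 or more in CD8+ and DP libraries and at 586 or less in CD4+ libraries, except for 3771 in the CD4+ library of KO animal 1. All values are read counts that the authors normalized for library depth with DESeq2 ("normalized counts"). In bulk RNA, fewer expressing cells and less RNA per cell cannot be told apart.

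All 10 genes were expressed in every group, the lowest value being 86.4 normalized counts for Nr4a2 in a KO CD4+ library. Levels were compared per kilobase of the merged RefSeq exons of a gene, which adjusts for length but not for the isoforms in use. Batf was the most abundant member on this scale in every group, with a mean from 6960 per kilobase in KO CD8+ to 12706 per kilobase in WT CD4+ cells. Nfatc1 and Nfatc3 followed in the CD4+ and KO groups, and in WT CD8+ cells Tox, at 3157 ± 478 per kilobase (SD, n = 4), stood between Batf and Nfatc1. Nr4a3 was the least abundant member on this scale in 4 groups, from 83.9 per kilobase in KO DP to 221 per kilobase in WT CD4+ cells, and in WT CD8+ cells Tox2 and Nr4a3 were lowest, at 207 and 208 per kilobase. The spread between animals was wider in KO than in WT cells for most members, Nfat5 being an exception. In KO CD8+ cells the highest library exceeded the lowest 7.62-fold for Nr4a2 and 5.90-fold for Tox2, against 1.34-fold and 1.79-fold in WT CD8+ cells. For Nfatc3 it was 1.24-fold in KO against 1.06-fold in WT CD8+ cells, and for Nfat5 1.39-fold in both.

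**Figure D1:**
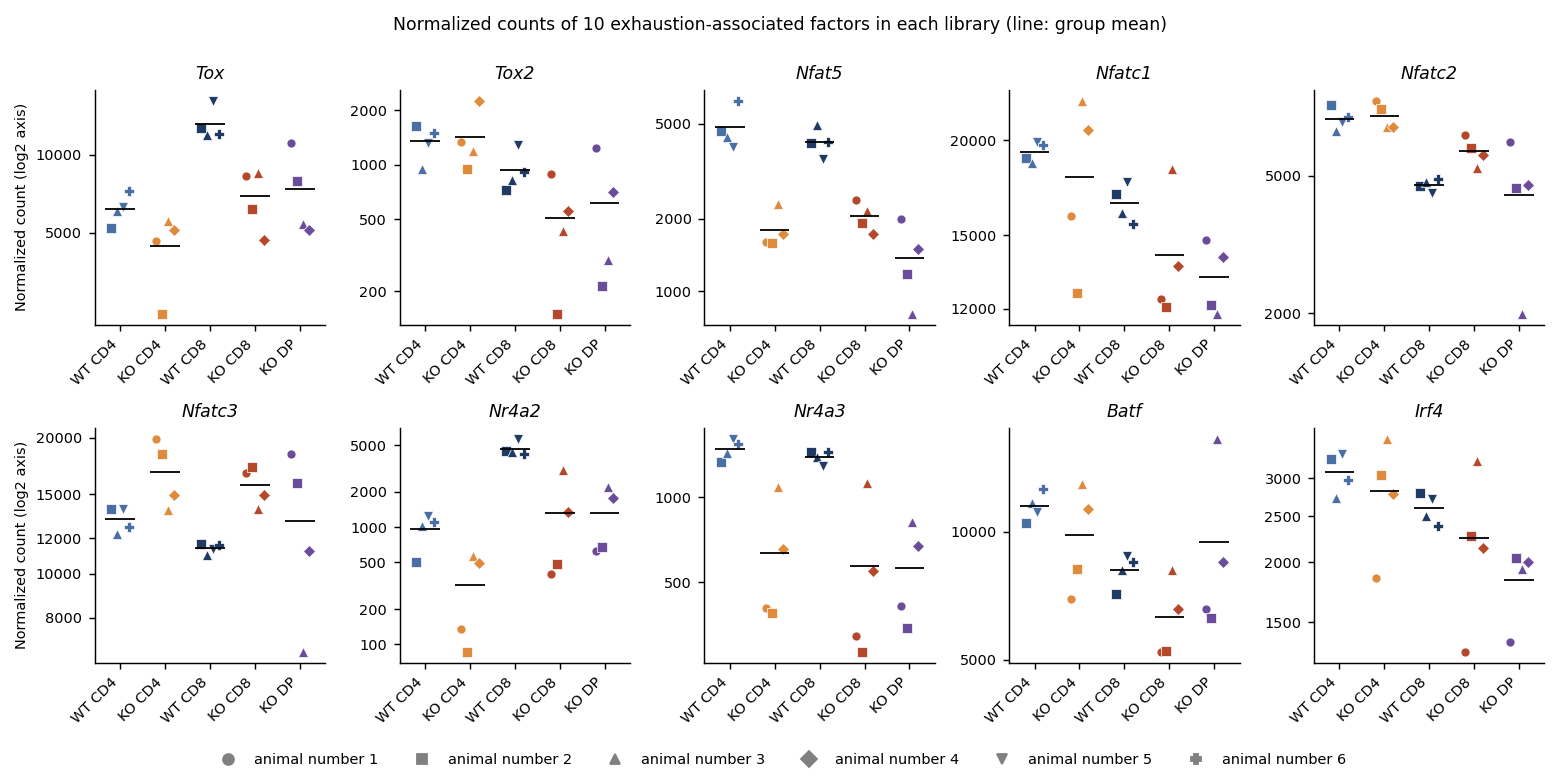
Normalized counts (log2 axis) of the 10 genes in each of the 20 libraries, by group, with 1 symbol per animal number and a line at the group mean. The WT libraries of Nfat5 and Nr4a3 lie above all KO libraries, and those of Nr4a2 in CD8+ cells lie between 4238 and 5661, above the KO CD8+ libraries at 399 to 3045.

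Loss of Dnmt3a was accompanied by lower Nfat5, Nr4a2 and Nr4a3 in both subsets, although the Nr4a2 call in CD4+ cells depended on the test. In CD4+ cells these 3 of 10 members were lower in KO cells and none was higher at an adjusted p under 0.05 (limma over all genes with Benjamini-Hochberg adjustment), where 18.4% of all 12391 genes tested passed, 8.59% as higher and 9.77% as lower. In CD8+ cells 6 of 10 members passed, where 25.2% of 12383 genes passed: Tox, Nfat5, Nr4a2 and Nr4a3 were lower, against a background of 12.5% passing as lower, and Nfatc2 and Nfatc3 were higher, against 12.6% passing as higher. With the animal number as a block, which for KO and WT joins different mice that share only a number, none of the members passed in CD4+ cells (background 0.210%) and Nfat5 passed in CD8+ cells (background 0.719%). Over the 10 members the median log2 fold change was -0.22 in CD4+ and -0.68 in CD8+ cells, beside -0.05 and -0.04 over all genes tested. The groups did not overlap for 2 members in CD4+ cells, Nfat5 and Nr4a3, where 25.6% of all genes did not overlap (12.3% higher and 13.3% lower in KO), and for the 6 members that passed in CD8+ cells, where 30.6% of all genes did not overlap (15.2% higher and 15.5% lower in KO).

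**Figure D2:**
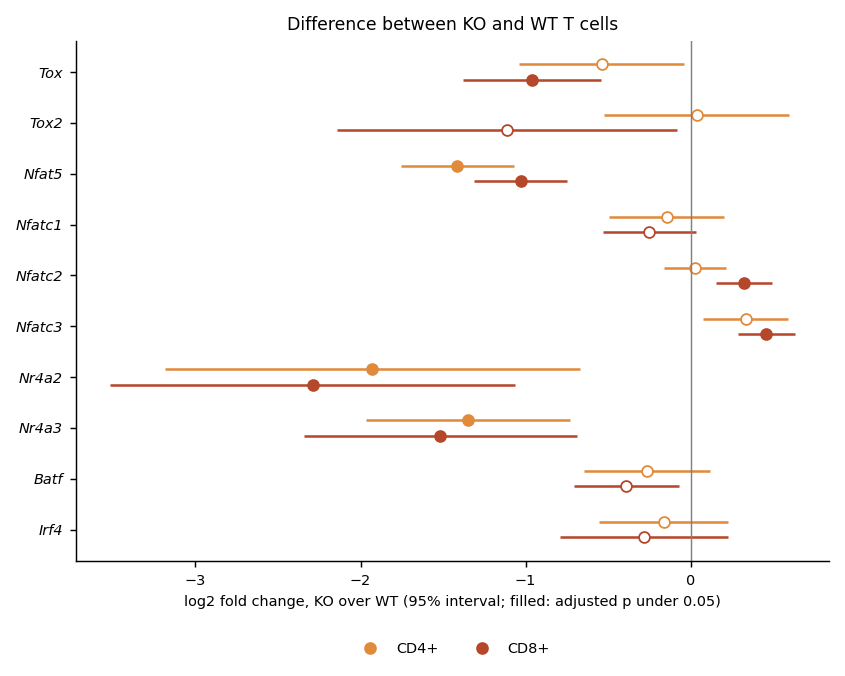
Difference between KO and WT cells for each gene, as a log2 fold change with its unadjusted 95% interval, in CD4+ (light) and CD8+ (dark) cells; filled points passed an adjusted p of 0.05. The 3 filled CD4+ points and 4 of the 6 filled CD8+ points lie below 0, while Nfatc2 and Nfatc3 in CD8+ cells lie above it.

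Nfat5 was the member that separated the genotypes most clearly. The gene lies on chromosome 8 (chr8:107293435-107379517, plus strand, GRCm38) and its exons span 13443 bases. The WT CD4+ libraries of animals 2, 3, 5 and 6 held 4669, 4413, 3987 and 6219 normalized counts and the KO CD4+ libraries of animals 1 to 4 held 1601, 1581, 2312 and 1734. In CD8+ cells the WT libraries held 4128, 4939, 3542 and 4172 and the KO libraries 2403, 1923, 2167 and 1728. Every KO library was thus below every WT library in both subsets. On the log2 scale Nfat5 fell by 1.41 in CD4+ (SE 0.16, limma adjusted p = 0.00121) and by 1.03 in CD8+ cells (SE 0.13, limma adjusted p = 0.00143), which corresponds to a mean in WT of 2.67 and 2.04 times that in KO cells. The exact 2-sided permutation p was 0.0286 in each subset, the smallest that 4 libraries against 4 allow. Both calls held in each of the 8 fits that left out 1 library, with log2 fold changes of -1.54 to -1.28 in CD4+ and of -1.11 to -0.95 in CD8+ cells.

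Other transcripts were lower together with Nfat5. Of 14 tested transcripts that are known to be held in the nucleus or to keep introns, such as Malat1, Clk1 and Nktr, 11 were lower in KO cells in each subset. Over all genes tested, 8.59% passed as higher and 9.77% as lower in CD4+ cells, and 12.6% and 12.5% in CD8+ cells. Their summed level was 97224 to 147981 normalized counts in WT CD4+ and 56942 to 67981 in KO CD4+ libraries, and 120175 to 134806 in WT CD8+ and 63306 to 95173 in KO CD8+ libraries, so neither pair of groups overlapped. Malat1, a nuclear long noncoding RNA, was at 39686 ± 13045 in WT CD4+ and at 8374 ± 1351 in KO CD4+ libraries (SD, n = 4). The exon length of Nfat5 exceeds that of 99.4% of genes with a known length. Transcripts of over 7857 bases had a median log2 fold change of -0.20 in CD4+ cells, beside -0.05 for all genes, and 27 of 629 were higher and 117 lower in KO cells. In CD8+ cells, where Nfat5 fell as well, their median was 0.0021, beside -0.04 for all genes, and 109 of 632 were higher and 65 lower. The part of nuclear retention or transcript length in the fall of Nfat5 was not tested.

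The calcineurin-dependent NFAT genes did not follow Nfat5. In WT CD8+ cells Nfatc3 (chr8:106058818-106130537, plus strand) was at 11639, 11015, 11351 and 11600 normalized counts and in KO CD8+ cells at 16729, 17279, 13914 and 14957, so that every KO library was higher. It rose by 0.46 on the log2 scale (SE 0.08, limma adjusted p = 0.00435). Nfatc2 (chr2:168476410-168601657, minus strand), the NFAT gene that dominates in resting T cells, was at 4667, 4792, 4457 and 4893 in WT CD8+ and at 6551, 6003, 5276 and 5752 in KO CD8+ libraries. It rose by 0.32 (SE 0.08, limma adjusted p = 0.0156), a call that was lost without WT CD8+ animal 5 (adjusted p = 0.0559). In a joint fit of all 20 libraries, in which the wider spread of the KO groups was shared, neither rise passed (limma adjusted p = 0.14 for Nfatc3 and 0.327 for Nfatc2). The exact permutation p was 0.0286 for both.

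In CD4+ cells Nfatc3 was at 13940, 12232, 13915 and 12715 normalized counts in WT and at 19908, 18419, 13846 and 14954 in KO libraries. The groups overlapped through KO animal 3, and the log2 difference of 0.33 (SE 0.12) did not pass (limma adjusted p = 0.0682), although it did without that library (0.0239) and in DESeq2 (0.0259). Nfatc2 was at 6713 to 8023 in WT and 6898 to 8238 in KO CD4+ libraries, a difference of 0.03 (95% interval -0.16 to 0.22, limma adjusted p = 0.833). Nfatc1 (chr18:80606205-80713071, minus strand), whose short isoform is induced by activation, was the most abundant family member in WT cells per kilobase. It was at 18688 to 19921 in WT CD4+ and at 12578 to 22558 in KO CD4+ libraries, and the difference of -0.15 did not pass (limma adjusted p = 0.525). In CD8+ cells Nfatc1 was at 15504 to 17654 in WT libraries and at 12371, 12069, 18340 and 13645 in KO libraries. Only KO animal 3 was above the WT range, and the difference of -0.25 (limma adjusted p = 0.169) passed when that library was left out (-0.38, limma adjusted p = 0.00557).

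Set beside one another per kilobase, the 4 expressed NFAT genes differed in their shares between genotypes. Nfat5 made up 6.03% ± 1.17 of their summed level in WT CD4+ cells and 2.19% ± 0.39 in KO CD4+ cells (SD, n = 4). In CD8+ cells its share was 6.34% ± 0.94 in WT and 2.89% ± 0.35 in KO cells, and in KO DP cells it was 2.24% ± 0.37. No KO library reached the lowest WT share. The share of Nfatc3 was 35.6% ± 1.5 in WT and 44.0% ± 8.0 in KO CD4+ cells, with overlap, and 37.1% ± 1.0 in WT and 47.9% ± 5.3 in KO CD8+ cells, without overlap. Nfatc4, the fifth family member, stayed at 3 normalized counts or less in all libraries of 4 groups.

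**Figure D3:**
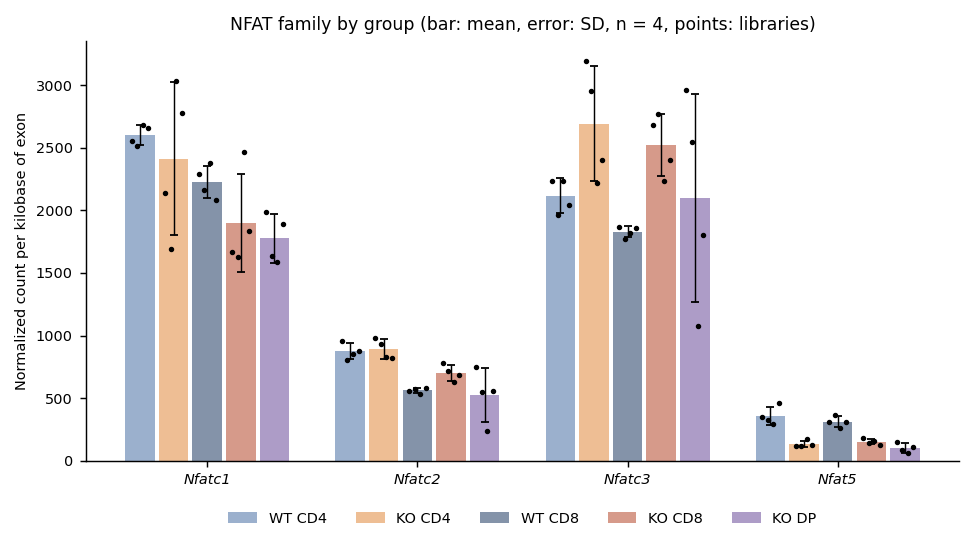
NFAT family levels in normalized counts per kilobase of exon by group, with bars at the mean, error bars of 1 SD (n = 4) and points for single libraries. Nfatc1 and Nfatc3 dominate in all groups, Nfat5 is lower in each KO group than in WT cells, and the widest error is that of Nfatc3 in DP cells.

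Tox, which encodes the HMG-box factor that is required for persistence of exhausted CD8+ T cells, was at its highest in WT CD8+ cells. The gene spans chr4:6686353-6991557 on the minus strand. The WT CD8+ libraries held 12648, 11883, 16124 and 12046 normalized counts and the KO CD8+ libraries 8284, 6156, 8473 and 4684, with no overlap. Tox fell by 0.96 on the log2 scale in KO CD8+ cells (SE 0.19, limma adjusted p = 0.00724, exact permutation p = 0.0286), and the mean in WT was 1.91 times that in KO cells. The call held in all 8 fits without 1 library (log2 fold change -1.07 to -0.79) and in edgeR and DESeq2. In CD4+ cells the WT libraries held 5195, 6082, 6266 and 7211 and the KO libraries 4657, 2429, 5538 and 5124. KO animal 2 was the lowest and the groups overlapped through WT animal 2. The log2 difference of -0.54 (SE 0.23) did not pass (limma adjusted p = 0.115), nor did it pass in any of the 18 alternative fits, where it lay between -0.67 and -0.27, the last value without KO animal 2.

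Tox2 (chr2:163203058-163324172, plus strand), a relative of Tox that is also expressed in T follicular helper cells, did not pass between genotypes in either subset. In CD8+ cells it was at 722, 826, 1290 and 917 normalized counts in WT libraries and at 887, 150, 432 and 557 in KO libraries. The log2 difference of -1.11 had an SE of 0.46 (limma adjusted p = 0.103) and passed without KO animal 1, whose library lay inside the WT range (-1.47, limma adjusted p = 0.0272). In CD4+ cells it was at 1636, 945, 1315 and 1503 in WT and at 1339, 943, 1186 and 2251 in KO libraries, a difference of 0.04 (95% interval -0.52 to 0.59, limma adjusted p = 0.930). Of the other family members, Tox4 was tested and did not pass in either subset, and Tox3 was not above 3 normalized counts in any library.

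The NR4A genes encode orphan nuclear receptors that are induced within hours of T cell receptor signalling and that restrain AP-1 activity. All 3 passed as lower in KO cells in both subsets, Nr4a2 in CD4+ cells only close to the threshold. Nr4a3 (chr4:48045078-48086447, plus strand) was at 1333, 1438, 1614 and 1543 normalized counts in WT CD4+ and at 406, 390, 1088 and 655 in KO CD4+ libraries. In CD8+ cells it was at 1452, 1394, 1294 and 1443 in WT and at 321, 283, 1127 and 546 in KO libraries. KO animal 3 was the highest KO library in both subsets and still lay below every WT library. Nr4a3 fell by 1.35 on the log2 scale in CD4+ (SE 0.28, limma adjusted p = 0.0131) and by 1.52 in CD8+ cells (SE 0.37, limma adjusted p = 0.0172), with an exact permutation p of 0.0286 in each. The CD4+ call held without each library in turn (adjusted p up to 0.0494), and the CD8+ call was lost without WT animal 6 (0.0508).

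Nr4a2 (chr2:57106830-57124003, minus strand) had the widest range of any member. The WT CD8+ libraries held 4432, 4345, 5661 and 4238 normalized counts and the KO CD8+ libraries 399, 488, 3045 and 1358, with no overlap. It fell by 2.29 on the log2 scale (SE 0.55, limma adjusted p = 0.0163, exact permutation p = 0.0286), and the call was lost without WT CD8+ animal 5 (0.0501). The WT CD4+ libraries held 507, 1023, 1251 and 1095 and the KO CD4+ libraries 136, 86.4, 568 and 499. Here the groups overlapped, since WT animal 2 lay below KO animal 3. In CD4+ cells the difference of -1.93 (SE 0.57, limma adjusted p = 0.0410, exact permutation p = 0.0571) was close to the threshold. The call was lost in edgeR, in DESeq2, in the joint fit and in limma without a trend (adjusted p up to 0.0895), and without KO animal 1, KO animal 2 or any 1 of the 4 WT CD4+ libraries (up to 0.112). Nr4a1, the family member that reports T cell receptor signal strength, was at 2297 to 3080 in WT CD4+ and at 914 to 2171 in KO CD4+ libraries (log2 fold change -0.80, SE 0.23, limma adjusted p = 0.0399). In CD8+ cells Nr4a1 was at 1595 to 2263 in WT and at 439 to 1228 in KO libraries (-1.42, SE 0.28, limma adjusted p = 0.00726).

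The promoters of Nr4a2 and Nr4a3 are known to respond to CREB, which binds the cyclic AMP response element. Half-sites of that element were searched in the windows from 250 bases before to 50 bases from each transcript start in the RefSeq promoter table of GRCm38.p6, as TGACG or its reverse complement CGTCA, so that both strands were read. Windows of 8 of the 10 members were searched, 14 in all, and none was searched for Tox or Nfatc1. The windows of Nr4a2 and Nr4a3 held 4 half-sites each, those of Nfat5 and Batf and 1 window each of Tox2 and Nfatc3 held 1, those of Nfatc2 and Irf4 held none, and 20.8% of 32851 windows held at least 1 and 0.231% at least 4. The half-site holds a cytosine followed by a guanine (CpG). The Nr4a2 window held 52 CpG and the Nr4a3 window 26, beside a median of 7 over all windows. At least 52 were held by 0.575% of all windows and at least 26 by 16.9%. Windows of like CpG content were not compared. The stretches that hold the half-sites of Nr4a2 and Nr4a3 are shown because their windows held the most among the members searched. Half-sites are in capitals, and the stretches read 5′ to 3′ on the strand of the gene.
Nr4a2, chr2:57124194-57124208: gccggCGTCActggc
Nr4a2, chr2:57124138-57124152: gcacgCGTCAcggag
Nr4a2, chr2:57124105-57124131: cgggcTGACGgggccgcTGACGcgctt
Nr4a3, chr4:48045069-48045083: gagggTGACGtagcg
Nr4a3, chr4:48045087-48045109: catgtCGTCAcatTGACGtctcg
Nr4a3, chr4:48045153-48045167: ataaaTGACGtgccg
Nr4a2 has its half-sites 102 to 205 bases before the start with their 5 flanking bases, and Nr4a3 has them 138 to 236 bases before the start of the transcript used. The Nr4a3 gene as annotated begins at chr4:48045078, so its stretches from 48045087 and from 48045153 lie within the annotated gene. No measurement of factor binding was made here, and a match of letters is not a site in use.

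Immediate early and heat shock genes moved with the NR4A genes. Of 17 genes of the handling and heat shock response, 10 were lower in KO cells in CD4+ and 10 in CD8+ cells, and none was higher. Over all genes tested, 9.77% passed as lower in CD4+ and 12.5% in CD8+ cells. Hspa1a, an inducible chaperone, was at 2221 to 10881 normalized counts in WT CD4+ and at 13.2 to 82.1 in KO CD4+ libraries, and at 1435 to 6483 in WT CD8+ and at 4.12 to 57.8 in KO CD8+ libraries. The summed level of the 17 genes ran from 217991 to 250226 in WT CD4+ and from 158960 to 216499 in KO CD4+ libraries, without overlap, and from 194334 to 224859 in WT CD8+ and from 149005 to 206966 in KO CD8+ libraries, with overlap. Within each KO group it was highest in animal 3, and Nr4a2 and Nr4a3 were highest in the same animal. The part of this response in the NR4A difference was not tested.

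Batf and Irf4, the partner pair, did not pass in either subset. Batf (chr12:85686720-85709087, plus strand) was at 10489, 11694, 11152 and 12612 normalized counts in WT CD4+ and at 6931, 8156, 12945 and 11282 in KO CD4+ libraries (log2 difference -0.27, SE 0.17, limma adjusted p = 0.288). For CD8+ cells Batf was at 7121, 8124, 8782 and 8487 in WT and at 5219, 5237, 8123 and 6588 in KO libraries. The CD8+ difference of -0.39 (SE 0.14, limma adjusted p = 0.0701) passed without KO animal 3 (-0.52, limma adjusted p = 0.00736) and after quantile normalization (0.0429). Irf4 (chr13:30749233-30766981, plus strand) was at 2726 to 3373 in WT CD4+ and at 1856 to 3626 in KO CD4+ libraries, and the log2 difference was -0.16 (95% interval -0.55 to 0.22, limma adjusted p = 0.518). For CD8+ cells Irf4 was at 2389 to 2797 in WT and at 1301, 2275, 3259 and 2149 in KO libraries, a difference of -0.28 (95% interval -0.79 to 0.23, limma adjusted p = 0.380). KO animal 1 had the lowest and KO animal 3 the highest Irf4 among KO libraries in both subsets.

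The genotype difference was compared between subsets with an interaction term over 16 libraries. None of the 10 members passed with limma, edgeR or DESeq2, where 0.0161% of 12446 genes passed in limma, and 1 member had an unadjusted p under 0.05. That member was Nfatc2, whose KO over WT difference was 0.30 higher in CD8+ than in CD4+ cells on the log2 scale (SE 0.11, limma adjusted p = 0.648). For Tox the interaction was -0.42 (95% interval -1.11 to 0.26), so the pass in CD8+ and not in CD4+ cells was not shown to differ between subsets. For Nfat5 it was 0.38 (95% interval -0.07 to 0.84) and for Nr4a2 -0.36 (95% interval -2.22 to 1.5). These intervals did not use the matching of CD4+ and CD8+ libraries by animal. With the animal as a block none of the 10 members passed either, where 1.39% of genes passed. The estimates stayed the same with smaller SEs, 0.16 in place of 0.21 for Nfat5 and 0.24 in place of 0.32 for Tox. For Nr4a2 the SE was 0.28 in place of 0.88. The lowest blocked limma adjusted p was 0.0819, for Nfatc2.

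The subsets themselves differed in these factors. In WT cells 8 of 10 members passed between CD8+ and CD4+ libraries, where 44.5% of 12559 genes passed, 22.2% as higher in CD8+ cells and 22.3% as lower. Tox and Nr4a2 were higher in WT CD8+ cells, Tox by 1.09 on the log2 scale (SE 0.10, limma adjusted p = 1.89e-06) and Nr4a2 by 2.33 (SE 0.21, limma adjusted p = 1.42e-06). The WT CD8+ mean was 2.13 times the WT CD4+ mean for Tox and 4.82 times for Nr4a2, and the difference was positive in 4 of 4 animals for both. Nr4a2 was also distinct from its relative, since Nr4a3 was at 1294 to 1452 in WT CD8+ and at 1333 to 1614 in WT CD4+ libraries (-0.08, 95% interval -0.24 to 0.07, limma adjusted p = 0.371). On the log2 scale Nr4a2 lay 0.37 to 1.39 below Nr4a3 in WT CD4+ libraries and 1.55 to 2.13 above it in WT CD8+ libraries.

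The other 6 members that passed were lower in WT CD8+ than in WT CD4+ cells. Nfatc2 was lower by a log2 difference of -0.64 (SE 0.06, limma adjusted p = 1.07e-06), Batf by -0.50 (SE 0.07, limma adjusted p = 6.29e-05), Nfatc1 by -0.22 (limma adjusted p = 0.00212) and Nfatc3 by -0.21 (limma adjusted p = 0.00412). These 4 did not overlap between the groups, and with Tox and Nr4a2 they made 6 members without overlap, where 41.8% of all genes did not overlap (20.8% higher and 21.0% lower in CD8+ cells). Irf4 was lower by -0.25 (limma adjusted p = 0.0153), a call that was lost without WT CD4+ animal 5 or WT CD8+ animal 6 (adjusted p up to 0.0547). Tox2 was lower by -0.53 (limma adjusted p = 0.0277), and this call held in only 2 of the 8 fits that left out a library, those without WT CD4+ animal 3 or WT CD8+ animal 5 (otherwise adjusted p up to 0.0917). Nfat5 did not pass (-0.19, 95% interval -0.45 to 0.07, limma adjusted p = 0.226). In the joint fit of 20 libraries, Tox and Nr4a2 were the 2 members that passed.

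In KO cells the same subset comparison depended on whether animals were matched. Without an animal term none of the 10 members passed between KO CD8+ and KO CD4+ libraries in limma or edgeR, where 4.22% of 12189 genes passed in limma (1.48% higher and 2.73% lower in CD8+ cells), while 5 had an unadjusted limma p under 0.05 and 2 passed in DESeq2. Tox2 and Nfatc2, both lower in CD8+ cells, were the 2 members without overlap, where 10.1% of all genes did not overlap (3.97% higher and 6.18% lower). The CD4+ and CD8+ libraries of a KO animal carry the same number and deviated together, and with the animal as a block 7 members passed, where 18.9% of genes passed. Nr4a2 was higher in KO CD8+ cells by 1.97 (SE 0.20, blocked limma adjusted p = 0.000188) and Tox by 0.66 (SE 0.18, blocked limma adjusted p = 0.0335). Nr4a2 was higher in 4 of 4 animals, by 1.44 to 2.48, and Tox in 3 of 4, with -0.13 in animal 4. Lower in KO CD8+ cells were Tox2 by -1.68 (blocked limma adjusted p = 0.00236), Batf by -0.62 (0.000336), Irf4 by -0.36 (0.0107), Nfatc2 by -0.34 (0.00304) and Nfatc1 by -0.33 (0.0222), each in 4 of 4 animals. Nfat5 (0.19), Nr4a3 (-0.25) and Nfatc3 (-0.08) did not pass with or without the block. The WT calls, with the block, covered 8 members, where 48.8% of genes passed.

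**Figure D4:**
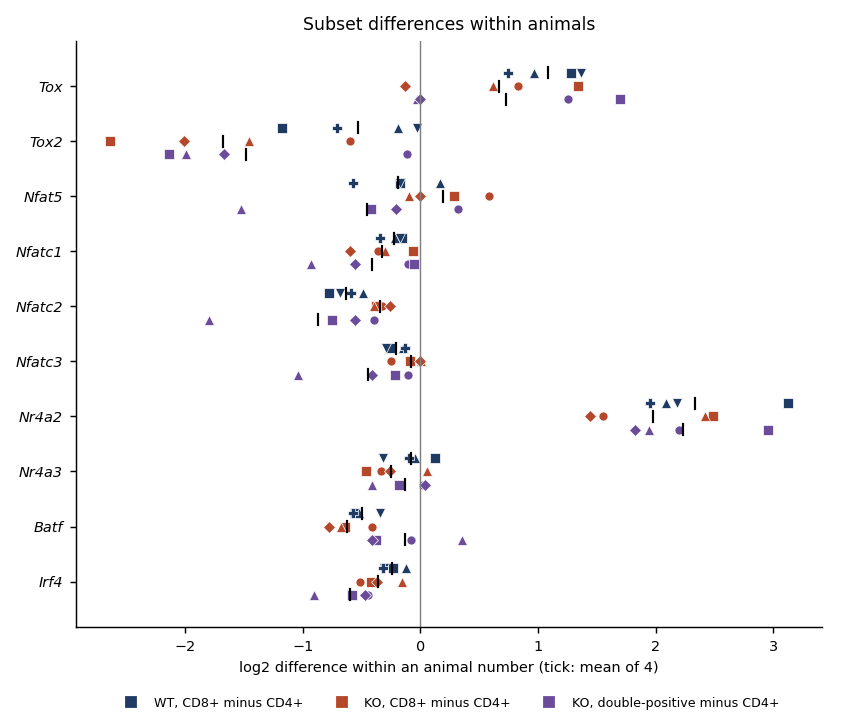
Differences between subsets within each animal number, on the log2 scale, for WT CD8+ minus CD4+, KO CD8+ minus CD4+ and KO DP minus CD4+ cells, with a tick at the mean of 4 animals. Nr4a2 lies to the right of 0 in every animal of all 3 contrasts (1.44 to 3.13), and Tox2 lies to the left of 0 in every animal.

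DP cells are not a usual component of the peripheral T cell pool and were sorted from KO recipients. No member passed between DP and KO CD8+ cells in limma, edgeR or DESeq2, nor with the animal block, where 0.00823% of 12153 genes passed in limma with and without the block. The groups overlapped for all 10 members, where 2.70% of all genes did not overlap (1.13% higher and 1.57% lower in DP cells), and 1 member had an unadjusted limma p under 0.05. This was Nfat5, at 2001, 1183, 804 and 1499 normalized counts in DP and at 2403, 1923, 2167 and 1728 in KO CD8+ libraries of animals 1 to 4. Nfat5 was lower in the DP library in 4 of 4 animals, with a log2 difference of -0.65 (SE 0.26, limma adjusted p = 0.871, exact permutation p = 0.0857). Without the DP library of animal 3 the difference was -0.42. That library took 2.56% of its reads from transcripts of over 7857 bases, against 4.99% to 5.86% in the other DP libraries, and such transcripts had a median log2 difference of -0.39 between DP and KO CD8+ cells, beside -0.01 for all genes. Its Nfatc2 and Nfatc3 were the lowest of all 20 libraries, at 1990 and 6722, and without it the differences of those genes went from -0.53 to -0.19 and from -0.36 to -0.07. Batf was higher in DP than in KO CD8+ cells in 4 of 4 animals, by 0.26 to 1.02 on the log2 scale, and did not pass (0.49, limma adjusted p = 0.871, and 0.19 without the DP library of animal 3, where Batf was at 16527).

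Against KO CD4+ cells, DP cells had higher Nr4a2 and lower Tox2 and Irf4 when animals were matched. None of the 10 members passed without an animal term in limma or edgeR, where 1.95% of 12175 genes passed in limma (0.682% higher and 1.26% lower in DP cells), while 5 had an unadjusted limma p under 0.05 and DESeq2 passed 1. With the animal block 3 passed, where 7.06% of genes passed. Nr4a2 was higher in DP cells by 2.23 (SE 0.22, blocked limma adjusted p = 0.00342). Its DP libraries held 627, 677, 2189 and 1768 normalized counts, all above the KO CD4+ range of 86.4 to 568. Tox2 was lower by -1.48 (SE 0.32, blocked limma adjusted p = 0.0420) and Irf4 by -0.60 (SE 0.12, blocked limma adjusted p = 0.0303), each in 4 of 4 animals. Nr4a2 and Nfatc2 were the 2 members whose DP and KO CD4+ libraries did not overlap, where 11.2% of all genes did not overlap (4.44% higher and 6.72% lower in DP cells).

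The upstream calcium pathway was described with lists of its known components. Of 14 tested calcineurin subunits and regulators, 2 were higher in KO CD4+ and 5 in KO CD8+ cells, and none was lower. Over all genes tested, 8.59% passed as higher and 9.77% as lower in CD4+ cells, and 12.6% and 12.5% in CD8+ cells. Rcan3, a calcineurin regulator, rose in both (0.68 in CD4+ and 0.61 in CD8+ cells on the log2 scale, limma adjusted p = 0.00517 and 0.00978). Dyrk1a and Gsk3b, kinases that return NFAT to the cytoplasm, rose in CD8+ cells by 0.43 and 0.34, as did the catalytic subunit gene Ppp3ca by 0.33. The list medians were 0.16 in both subsets, beside -0.05 and -0.04 for all genes. Among 9 genes of store-operated calcium entry, the channel gene Orai3 rose in both subsets (0.43 and 0.46), the calcium sensor gene Stim1 rose in CD8+ cells (0.41), and the calcium release channel gene Itpr1 fell in CD4+ cells by 0.46. Of 8 tested osmotic stress targets of NFAT5, 2 passed in each subset: Slc6a6, the taurine transporter, rose (0.44 and 0.50) and Pnpla6 fell (-0.64 and -0.88). The share of all genes called was 18.4% (CD4+) and 25.2% (CD8+). The list medians were -0.36 and -0.26, beside -0.05 and -0.04 for all genes. The 10 genes of this list summed to 36154 to 44272 normalized counts in WT CD4+ and 40231 to 56770 in KO CD4+ libraries. In CD8+ cells the sums were 38106 to 44649 in WT and 41138 to 52676 in KO libraries. Both pairs of ranges overlapped.

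Fos and Jun genes, the AP-1 partners of NFAT and BATF, were listed together with the Batf family, Irf4 and Irf8. Of 11 tested genes of this list, 6 were lower and none higher in KO cells in each subset, Batf and Irf4 not among them, and all 11 had a log2 fold change below 0 in each. Over all genes tested, 9.77% passed as lower in CD4+ and 12.5% in CD8+ cells. In CD4+ cells Fosb was at 801 to 3226 normalized counts in WT and at 51.1 to 152 in KO libraries, and the log2 fold changes of Fos, Jun and Junb were -3.01, -2.72 and -0.86. In CD8+ cells those of Fosb, Fosl2 and Jun were -4.12, -0.98 and -2.97, and Fos was at 1594 to 3138 in WT and at 144 to 448 in KO libraries. Fos, Fosb, Jun and Junb are also counted in the handling and heat shock list above.

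Known target genes of NFAT and its partners were counted by list. Of 9 tested cytokine and ligand genes that need NFAT with AP-1, 5 were lower and none higher in KO CD4+ cells, including Ifng (-0.95), Csf2 (-1.32), Il21 (-1.35) and Il4 (-2.90). In CD8+ cells 2 of 6 were lower, Ifng (-1.79, limma adjusted p = 0.00256) and Tnf (-1.24, limma adjusted p = 0.0405). In serum the direction was the opposite, since the authors measured more IFN-γ, TNF-α and GM-CSF (encoded by Csf2) in KO recipients. That was protein in serum from an earlier day, not RNA of sorted splenic T cells. Of 9 tested genes of anergy that NFAT drives without AP-1, 1 was higher and 1 lower in each subset, near the share over all genes (8.59% higher and 9.77% lower in CD4+, 12.6% and 12.5% in CD8+ cells). Ndrg1 rose (1.09) and the diacylglycerol kinase gene Dgka fell (-0.38) in CD4+ cells, and Ikzf1 rose (0.27) and the ubiquitin ligase gene Cblb fell (-0.50) in CD8+ cells. Of 12 tested exhaustion receptors, 1 was higher and 2 were lower in KO CD4+ cells, namely Tigit (0.55), Cd38 (-1.02) and Cd200r1 (-1.25). In CD8+ cells 4 were lower and none higher. Pdcd1, which encodes PD-1, was at 24223 to 27745 in WT CD8+ and at 9156 to 25494 in KO CD8+ libraries (-0.77, SE 0.25, limma adjusted p = 0.0482). The Pdcd1 groups overlapped and its adjusted p was close to the threshold. The authors, who tested with DESeq2, describe PD-1 as lower in KO recipients with an adjusted p above 0.05. They report lower PD-1 in the CD8+ compartment by flow cytometry, in separate experiments and on an earlier day than the RNA. The log2 fold changes of Cd38, Tnfrsf9 and Cd200r1 in CD8+ cells were -0.95, -0.76 and -1.87.

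The genes whose profile over the 20 libraries was most like that of Nfat5 and Tox were listed by the root mean square difference of log2 values, each centred on its own mean, among 10708 other genes with a mean of at least 50 normalized counts. Closest to Nfat5 was Dnmt3a, the deleted gene itself, at a root mean square difference of 0.23, where the spread of Nfat5 about its own mean was 0.78. Nisch, Mbd6, Mdm4 and Gbp8 followed at 0.25 to 0.29. Closest to Tox, whose own spread was 0.63, were Lclat1 at 0.26 and Ildr1, Perp, Zfp956 and Gdf11 at 0.33 to 0.35. After quantile normalization 3 of the 5 genes for Nfat5 and 4 of the 5 for Tox were still among the closest 5. The libraries of a group share genotype and subset, so the likeness mostly compares 5 group means.

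Markers of other cells were low beside T cell genes and moved in part with genotype. The 7 B cell genes summed to 1250 to 1681 normalized counts in WT CD4+, 1650 to 2162 in KO CD4+, 412 to 536 in WT CD8+ and 1717 to 2751 in KO CD8+ libraries. Cd79b rose in both subsets (3.72 and 3.21 on the log2 scale), Ms4a1 was at 3 or less in each library of all groups but KO CD4+, and Pax5 was at 3 or less in each KO library. Of 7 myeloid and dendritic cell genes, 3 were lower in KO CD4+ and 1 in KO CD8+ cells, and their sums overlapped between genotypes (1970 to 2486 in WT and 1109 to 2715 in KO CD4+ libraries, 8628 to 12266 in WT and 5887 to 16134 in KO CD8+ libraries). Of 3 tested NK cell genes 1 was higher in KO CD4+ cells, whereas 1 was higher and 1 lower in KO CD8+ cells. Over all genes tested, 8.59% passed as higher and 9.77% as lower in CD4+ cells, and 12.6% and 12.5% in CD8+ cells. None of 5 neutrophil and erythroid genes passed in limma in either subset, and all 5 had a log2 fold change below 0 in each. They summed to 1236 to 2328 in WT CD4+ and 5.89 to 1998 in KO CD4+ libraries, and to 1179 to 2384 in WT CD8+ and at most 1363 in KO CD8+ libraries. No regulatory T cell gene of the list passed in either subset, Il21 was the 1 T follicular helper gene that passed, in CD4+ cells, and Cd3e was the 1 T cell gene that passed, lower in KO CD8+ cells (-0.39). The 7 T cell genes summed to 183659 or more in every library. The part of these cells in the members' differences was not tested.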

How the data were processed

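RNA was measured in 20 libraries of 5 groups, mapped by genotype, subset and animal number in the labels. The authors aligned strand-specific poly(A) reads to mm10 with STAR (version 2.7.2b in the submitters' processing notes), counted pairs on exons of UCSC genes by strand, and normalized with DESeq2. The deposited signal, as normalized by the authors, returned whole reads for 100% of values (relative tolerance 1e-06). Replicate libraries differed beyond sampling noise (chi-square per degree of freedom of 11.0 or more).

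Groups were compared with limma 3.58.1 in R 4.3.3 (lmFit, eBayes with trend) on log2 of the normalized count with a pseudocount of 1. A gene was tested when its mean over the libraries compared was at least 10. Fold changes are on that scale, P values are 2-sided and adjusted by Benjamini-Hochberg over all genes tested, and the threshold was 0.05. The test was checked on simulated data with equal spread in both groups and no animal effect. That check does not cover the wider spread of the KO groups. Single values had exact permutation tests. Alternatives included edgeR 4.0.16 and DESeq2 1.42.0 on whole reads. Exon lengths and coordinates are from RefSeq GRCm38.p6. The precision is set by 4 animals a group.

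The members and lists were chosen with earlier results of these data known. A further list is not reported here. All 10 members were named throughout, and other list genes where they passed between KO and WT, at most the 4 with the lowest adjusted p per list and comparison, and beyond that rule Nr4a1, Tox3, Tox4, Nfatc4, Malat1, Hspa1a, Pax5 and Ms4a1 as members of the lists shown. Equal animal numbers were taken as pairs within a genotype, since deviations from group means correlated for every pair (r of 0.412 to 0.498 for KO CD4+ and CD8+, 0.271 to 0.457 for KO CD4+ and DP, 0.338 to 0.538 for KO CD8+ and DP, and 0.120 to 0.196 for WT libraries). KO and WT animals are different mice.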

Additional observations from a re-analysis of the deposited data

Results flagged for a closer look

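Among 50 sets of 4 libraries (10 genes in 5 groups), 2 held a library that lay far from the rest. By chance about 1 in 20 sets would, so 2 of 50 is no more than chance gives. In WT CD8+ cells Nr4a2 was highest in animal 5, at 5661 normalized counts, and the gap to the next library was 0.845 of the range. In KO DP cells Irf4 was lowest in animal 1, at 1362, and the gap was 0.878 of the range.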

How the results depend on the processing

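With 4 animals a group, small differences in the KO groups were not detectable, and a p above the threshold does not show that levels were equal. The number of members past the threshold stayed within 1.5 times its value in 17 of 18 alternatives for KO against WT CD4+ cells, 17 of 18 for CD8+ cells and 17 of 18 for WT CD8+ against WT CD4+ cells, in all 18 for KO DP against KO CD8+ cells and in all 26 for the interaction. The exceptions were as follows. With the animal number as a replicate block, which for KO and WT pairs only different mice of numbers 2 and 3 and leaves few degrees of freedom, 0 members passed in CD4+ and 1 in CD8+ cells, and 26 and 89 genes passed in place of 2274 and 3118 (0.210% and 0.719%). In the joint fit of 20 libraries 2 members passed between WT subsets. Between KO CD8+ and KO CD4+ cells 0 passed, against 2 in DESeq2, 1 in the joint fit, 7 with the block and 0 to 1 without 1 library (Tox2 without KO CD8+ animal 1). Between KO DP and KO CD4+ cells 0 passed, against 1 in DESeq2, 2 in the joint fit and 3 with the block. Without 1 library, 2 to 4 members passed in CD4+ and 4 to 8 in CD8+ cells.

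Over all genes, 628 to 2963 passed in CD4+ and 1633 to 4092 in CD8+ cells without 1 library, the lowest without WT animal 6 in each. Between WT subsets 1595 passed in the joint fit in place of 5592. Between KO CD8+ and KO CD4+ cells 233 to 959 passed, and 2305 with the block, in place of 514. Between KO DP and KO CD4+ cells 84 to 1453 passed, and 860 with the block, in place of 237. For the interaction 0 to 21 passed, and 173 with the block, in place of 2, and between KO DP and KO CD8+ cells 1 to 3.

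Differences that changed sign had not passed, and the cause was not tested. In KO against WT CD4+ cells Tox2 went to -0.23 and Irf4 to 0.15 with the block and Nfatc2 to -0.019 after quantile normalization, and in CD8+ cells Irf4 went to 0.041 with the block. In KO DP against KO CD8+ cells Nr4a2 went to -0.026 in edgeR and -0.013 in DESeq2, and Nr4a3 to -0.035 and -0.024. Without 1 library, log2 fold changes crossed 0 as follows. In KO against WT CD4+ cells they ran from -0.21 to 0.21 for Tox2, -0.27 to 0.013 for Nfatc1, -0.022 to 0.073 for Nfatc2 and -0.30 to 0.024 for Irf4. In KO CD8+ against KO CD4+ cells they ran from -0.17 to 0.0035 for Nfatc3 and -0.66 to 0.051 for Nr4a3. In KO DP against KO CD8+ cells they ran from -0.16 to 0.22 for Tox, -0.30 to 0.59 for Tox2, -0.15 to 0.051 for Nfatc1, -0.16 to 0.82 for Nr4a2 and -0.14 to 0.52 for Nr4a3. In KO DP against KO CD4+ cells they ran from -0.34 to 0.17 for Nr4a3 and -0.44 to 0.029 for Batf. For the interaction they ran from -0.26 to 0.018 for Nfatc1, -0.92 to 0.054 for Nr4a2, -0.57 to 0.13 for Nr4a3, -0.28 to 0.023 for Batf and -0.32 to 0.12 for Irf4.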
